A study of Mus musculus with 2 samples.

Results

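DNA methylation was described at the CpG cytosines of mouse liver that were read most often. The rule took every autosomal CpG cytosine with at least 200 reads in both libraries, left out the short window of chromosome 17 that holds the ribosomal DNA copy of the mm10 assembly, and joined cytosines less than 1000 bp apart into loci. It found 486 cytosines in 97 loci on 18 of the 19 autosomes, out of 4631738 CpG cytosines listed in either library, or 0.0105%. The fasted library came from CD-1 mice that went without food for 12 hr and the control library from CD-1 mice that were not fasted. Both came from the liver of mice 12 weeks old, and the control mice had chow and water freely. CD-1 is an outbred stock, so the genomes of the mice differ. There was 1 library in each group, the labels do not say how many mice each one held, and no spread between animals could be measured. The values compare 2 libraries, not 2 conditions.

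Reduced representation bisulfite sequencing cuts genomic DNA with enzymes whose sites hold a CpG, keeps short fragments, and converts cytosines that carry no methyl group, so that a read shows whether each CpG was methylated. A fragment that occurs in many copies in the genome, such as a satellite, a transposon or a ribosomal gene, can give far more reads than a fragment that occurs once, and an assembly that holds few of the copies stacks all of their reads in few places. Mammalian satellites and transposons are as a rule heavily methylated in adult tissue, and ribosomal genes are methylated in a part of their copies. The members were chosen by depth alone and were proposed as loci of high copy repeats. Repeat classes were not analysed here, so that name was not checked, and the members are called high depth loci.

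Depth chose the members and is given as a description. The members had a median of 468.5 reads in the fasted library and 549 in the control library, against medians of 19 and 18 reads for all 1603296 autosomal cytosines with at least 10 reads in both. The highest depth of a member was 7407 reads in the fasted library and, at another cytosine, 7290 in the control library. Together they took 605180 of 51276705 reads in the fasted library, or 1.18%, and 598672 of 49253627 in the control library, or 1.22%, where a read counts once at each cytosine it covers. The reads were concentrated in few loci. The top 5 loci held 59.6% of the members' reads and the top 20 held 87.9%. Of the 97 loci, 20 had 1 cytosine, 33 had at least 4 and the longest list had 37.

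At the threshold the values did not form a step. The 5 members just inside had 200 reads in their shallower library, and they were methylated at 93.5, 86.4, 31.5, 28.2 and 4.0% in the fasted library and at 96.6, 66.0, 28.0, 28.0 and 4.93% in the control library. The 5 cytosines just outside were 1 read short in the shallower library, and they were methylated at 81.9, 91.0, 28.6, 26.4 and 6.03% in the fasted library and at 90.3, 92.6, 26.6, 24.6 and 4.93% in the control library. Both sets covered low and high levels, and several pairs lay in the same locus on either side of the threshold.

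Only 2 promoter windows in the RefSeq tables (assembly GRCm38.p6, the assembly behind mm10) held members, and they are shown because they are the places where a high depth locus meets an annotated gene start and where the CpGs can be read. Each window runs 5′ to 3′ on the gene's strand from 250 bases before the start of transcription, and capitals mark the CpGs that are members. The upper one lies at chr6:3182866-3183165 on the plus strand and belongs to LOC115490388, and the lower one lies at chr6:47651271-47651570 on the minus strand and belongs to Gm40371. Both are long noncoding RNA genes.
LOC115490388: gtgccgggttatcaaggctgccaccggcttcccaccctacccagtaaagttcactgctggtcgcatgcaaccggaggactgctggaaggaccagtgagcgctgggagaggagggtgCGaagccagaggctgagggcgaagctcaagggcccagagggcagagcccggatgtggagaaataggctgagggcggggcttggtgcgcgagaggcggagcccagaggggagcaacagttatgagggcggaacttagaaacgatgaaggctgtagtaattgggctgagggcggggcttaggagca
Gm40371: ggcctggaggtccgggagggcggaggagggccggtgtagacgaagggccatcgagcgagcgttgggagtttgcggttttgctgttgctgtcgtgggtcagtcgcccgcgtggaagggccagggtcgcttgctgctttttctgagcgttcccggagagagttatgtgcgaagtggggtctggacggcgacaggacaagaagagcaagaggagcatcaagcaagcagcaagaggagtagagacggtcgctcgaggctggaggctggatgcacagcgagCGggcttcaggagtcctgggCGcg

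The LOC115490388 window held 15 CpGs, 4 copies of CCGG, the site of MspI, and 0 copies of TCGA, the site of TaqαI. Its member, at position 3182982, was methylated in 30 of 279 reads of the fasted library, or 10.8%, and in 46 of 263 reads of the control library, or 17.5% (95% exact Clopper-Pearson intervals 7.37 to 15.0% and 13.1 to 22.6%). The difference of -6.74 points did not pass the test over all cytosines (two-sided Fisher's exact test, adjusted p = 1.0). The Gm40371 window held 25 CpGs, 3 copies of CCGG and 2 of TCGA. Its members, at 47651274 and 47651294, were methylated in 4 of 241 and 2 of 258 reads of the fasted library and in 0 of 222 and 6 of 238 reads of the control library. All 38 of the window's cytosines with at least 10 reads averaged 3.32% in the fasted library and 4.19% in the control library, so the high depth sat inside a window that was nearly free of methylation in both. Both motifs read the same on either strand and do not overlap. Of 31396 autosomal promoter windows of this length, 53.5% hold CCGG, 22.1% hold TCGA and 61.0% hold either.

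The loci fell into a large methylated class and a small class of low methylation that held most of the reads. By the mean of both libraries, 71 loci with 275 cytosines were above 70%, 17 loci with 148 cytosines were below 30%, and 9 loci with 63 cytosines lay between. The 17 low loci took 58.7% of the members' reads in the fasted library and 51.8% in the control library. The 71 high loci took 36.0% in the fasted library and 40.8% in the control library. Levels were close between the libraries: over the 97 loci Pearson's r of the levels was 0.992, a description over loci that share 2 libraries, and 88 loci differed by less than 5 points.

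**Figure D1:**
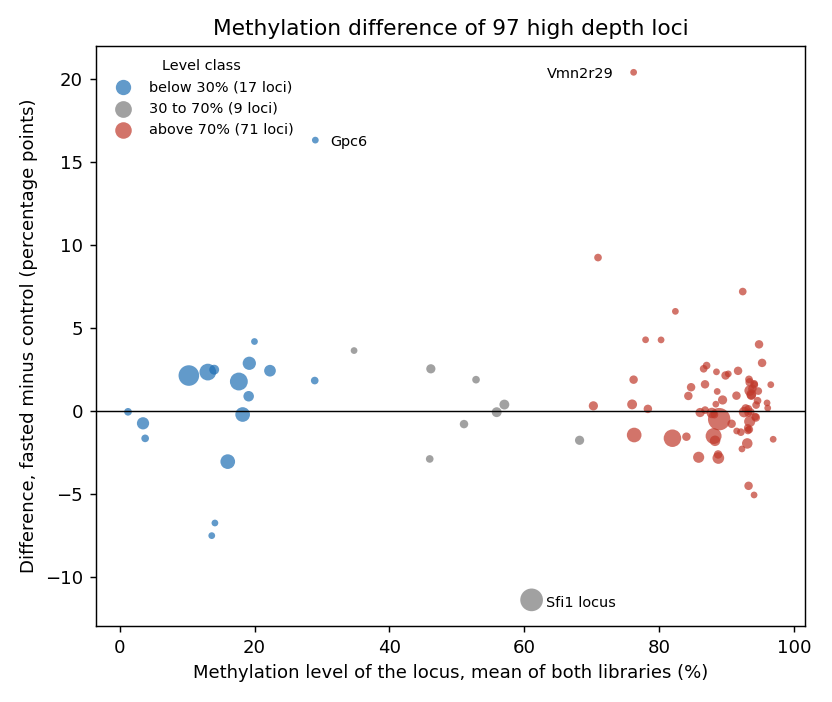
Difference in methylation between the fasted and the control library (y axis, percentage points) against the level of the locus averaged over both libraries (x axis, percent), with 1 point for each of the 97 loci, coloured by level class and larger with more cytosines. Of the 97 loci 88 lie within 5 points of 0. The Sfi1 locus, with 37 cytosines, lies at -11.4, and the points of Vmn2r29 at 20.4 and Gpc6 at 16.3 are 1 cytosine each.

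The high loci averaged 89.6% in the fasted library and 88.7% in the control library, a mean difference of 0.822 points with 42 loci higher and 29 lower. The low loci averaged 16.0% in the fasted library and 15.0% in the control library, a mean difference of 1.02 points with 10 higher and 7 lower. The loci between averaged 52.1% in the fasted library and 53.0% in the control library, with 4 higher and 5 lower. Each class mean was small beside the SD of the differences over its loci, which was 3.32 points in the high class, 5.11 in the low class and 4.43 in the class between. Over single cytosines, 255 members were higher in the fasted library and 231 were lower, and the mean difference was -0.563 points. That sign rested on 1 locus: without the Sfi1 locus the mean was 0.327 points, with 253 higher and 196 lower.

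A cytosine was called where its reads differed by 25 points or more and the Benjamini-Hochberg adjusted p of Fisher's exact test, two-sided and over all tested cytosines, was under 0.05. Of all tested autosomal cytosines 0.082% were called. Of the 486 members 0 were called, while 139, or 28.6%, had an unadjusted p under 0.05, against 2.16% of all tested. At cytosines whose shallower library had at least 50 and under 200 reads, 0.078% were called. With 10 points in place of 25 the call took in 22 members, or 4.53%, against 0.0845% of all autosomal cytosines and 0.138% of those with at least 50 and under 200. Of the 22, 1 was higher in the fasted library and 21 were lower, against backgrounds of 0.0457% higher and 0.0387% lower. With the reads of both strands summed, the rule took 504 CpGs, of which 7 were called higher and 14 lower at 10 points. Over all autosomal CpGs summed in this way 2517 were called at 10 points, and their share was not computed. All 14 lower ones lay in the Sfi1 locus and none of the 7 higher ones did. Of the 7, 3 held a member: those of Vmn2r29 and Gpc6, and 1 at chr2:32117498. The last had 32 of 260 reads methylated in the fasted library and 4 of 462 in the control library. All 462 control reads were on the minus strand, so its plus strand was read in the fasted library alone. The minus strand member by itself did not pass. With no size required, 50 members had an adjusted p under 0.05, 18 higher and 32 lower, in 13 loci, or 10.3% against 0.0919% of all tested. Depth enters these shares, since more reads let smaller differences pass. The reads are PCR products without molecular identifiers, so they are not independent molecules, and intervals and p-values here reflect counting error alone.

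The lower calls at 10 points lay in Sfi1, which encodes a centrin binding protein of the centrosome. The locus ran over chr11:3192949-3193596, inside the gene's span from 3131850 to 3203347. It averaged 55.4% in the fasted library and 66.8% in the control library. The difference was -11.4 points (95% interval -12.2 to -10.5, counting error only). Such an interval takes the cytosines of a locus as independent, although neighbours share reads, so it can be too narrow. The locus held all 21 members called as lower at 10 points. In the locus 35 of 37 cytosines were lower in the fasted library and 24 had an adjusted p under 0.05.

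The difference was not even along the Sfi1 locus. Its first 5 cytosines, from 3192949 to 3193029 on the minus strand, averaged 43.0% in the fasted library and 44.5% in the control library, and none was called. The other 32, from 3193348 to 3193596, averaged 57.3% in the fasted library and 70.2% in the control library, and all 32 were lower in the fasted library. Both strands took part. The 18 plus strand cytosines of that stretch differed by -14.2 points and the 14 minus strand cytosines by -11.2 points, with 13 and 8 called. Within a library the strands also differed there. At the 14 CpGs read on both strands the plus strand averaged 62.8% and the minus strand 53.3% in the fasted library, against 76.3 and 64.4% in the control library. The gap between strands, 9.51 points in the fasted library and 11.9 in the control library, was thus about as large as the gap between the libraries.

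The largest decrease among called members was at position 3193583 on the plus strand, with 46.9% of 838 reads methylated in the fasted library and 69.6% of 1043 reads in the control library (-22.7 points, Fisher's exact test, adjusted p = 1.1e-17). Position 3193596 followed, with 38.3% of 838 reads in the fasted library and 59.2% of 1041 in the control library (Fisher's exact test, adjusted p = 4.39e-14). Position 3193471 had 55.3% in the fasted library and 74.0% in the control library. These 3 cytosines were on the plus strand. Position 3193473, on the same strand, had 67.5% in the fasted library and 86.1% in the control library. Position 3193439 had 63.6% in the fasted library and 80.3% in the control library.

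**Figure D2:**
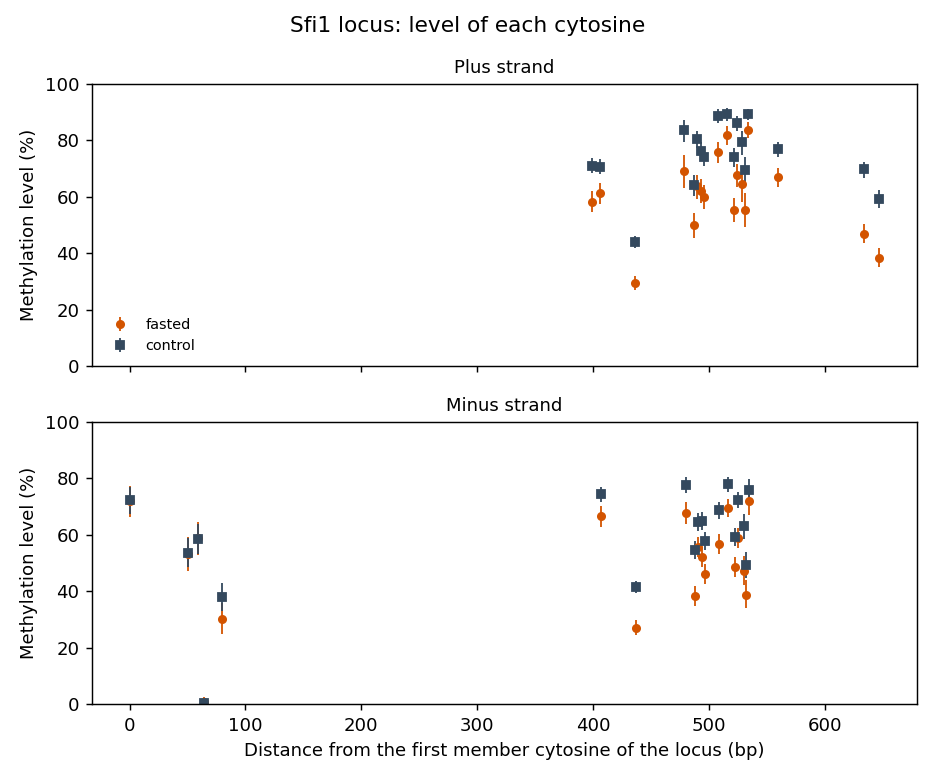
Methylation level (y axis, percent) of the 37 member cytosines of the Sfi1 locus against distance from the first of them (x axis, bp), plus strand above and minus strand below, with circles for the fasted library, squares for the control library and bars for 95% exact binomial intervals that cover counting error only. The 5 cytosines at the left have overlapping intervals, while all 32 at the right are lower in the fasted library.

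The reads of the 32 cytosines stood at 0.703 of the control library after division by the ratio of the library totals (1.04), and those of the first 5 cytosines, which differed by -1.59 points, at 0.730. The lower depth was thus present in both stretches, with the larger methylation difference in 1 of them. Around the locus, 8 cytosines within 1000 bp with at least 10 and under 200 reads averaged 51.2% in the fasted library and 54.7% in the control library, with 7 of 8 lower and a depth ratio of 1.22. The other 365 tested cytosines from 3100000 to 3300000 of chromosome 11 averaged 34.1% in the fasted library and 33.1% in the control library. Sfi1 held 2 further high depth loci, and neither followed the first. The cytosine at 3173868 was methylated at 36.6% in the fasted library and 32.9% in the control library. The 3 cytosines from 3185961 to 3186102 averaged 78.4% in the fasted library and 78.2% in the control library.

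The single member called as higher at 10 points lay in Vmn2r29, a vomeronasal receptor gene, at chr7:7278177 on the minus strand. It was methylated in 216 of 250 reads of the fasted library, or 86.4%, and in 132 of 200 reads of the control library, or 66.0% (20.4 points, Fisher's exact test, adjusted p = 0.00124). With every read count halved this call was lost (Fisher's exact test, adjusted p = 1.0). Its 34 neighbours within 500 bp with at least 10 and under 200 reads averaged 57.7% in the fasted library and 53.4% in the control library. The next largest increase of a locus was at chr14:117547252 in Gpc6, a glypican gene, chosen for mention after its value was seen. That cytosine had 84 of 226 reads methylated in the fasted library, or 37.2%, and 49 of 235 in the control library, or 20.9%, and it did not pass (Fisher's exact test, adjusted p = 0.108) unless the reads of both strands were summed (Fisher's exact test, adjusted p = 0.0476).

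Among the low loci, the deepest were small stacks of CpGs with very many reads each. The locus with most reads of all lay in Zc3h7a, a zinc finger protein gene, at chr16:11144050-11144122, where 30 cytosines within 73 bp held 83697 reads of the fasted library and 80705 of the control library. Its levels averaged 11.3% in the fasted library and 9.19% in the control library, with single cytosines at 6.39 to 20.4% in the fasted library and 5.46 to 14.9% in the control library. Of the 30 cytosines 29 were higher in the fasted library, and 2 had an adjusted p under 0.05. The mean difference was 2.14 points (95% interval 1.83 to 2.46, cytosines taken as independent).

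Beside this stack the genome was methylated. The 8 cytosines within 500 bp that had at least 10 and under 200 reads lay 339 to 404 bp before the first member and averaged 91.7% in the fasted library and 92.3% in the control library, at a median of 18.5 and 12 reads. Depth and level thus both changed sharply between the flank and the stack, in each library. A like contrast was seen at chr3:62159065, where 1 cytosine was methylated in 22.1% of 4352 reads of the fasted library and 17.9% of 3510 reads of the control library, while its 22 neighbours averaged 95.9% in the fasted library and 97.1% in the control library. At chr12:99645557-99645627, in Gm19951, 6 cytosines averaged 19.6% in the fasted library and 18.7% in the control library, and their 23 neighbours averaged 82.5% in the fasted library and 74.8% in the control library. Of the 13 low loci with at least 5 such neighbours, 4 had neighbours above 70% in both libraries. The rest had neighbours at lower levels, as at chr8:20122706-20122795, where 9 members averaged 3.10% in the fasted library and 3.83% in the control library and 24 neighbours averaged 5.02% in the fasted library and 3.48% in the control library.

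**Figure D3:**
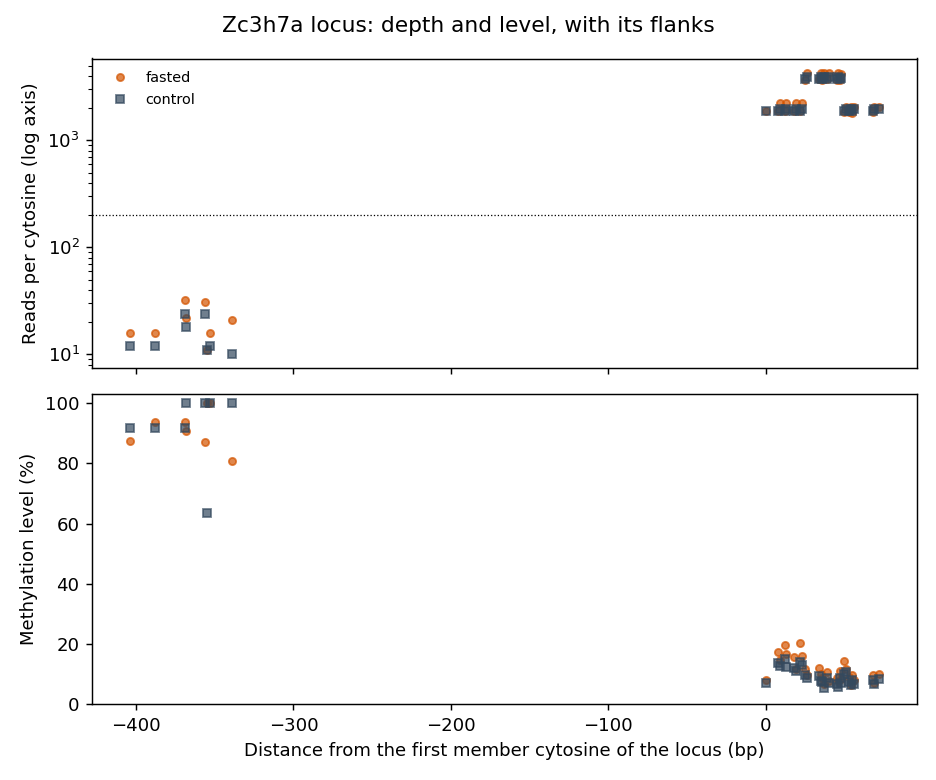
Reads per cytosine (upper y axis, log scale) and methylation level (lower y axis, percent) against distance from the first member cytosine of the Zc3h7a locus (x axis, bp), with circles for the fasted library and squares for the control library. The dotted line marks 200 reads. The 30 members hold at least 1820 reads each in both libraries at 5.46 to 20.4%, and the 8 flanking cytosines average 91.7% in the fasted library and 92.3% in the control library.

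The other deep stacks of low level moved by a few points. At chr11:109011881-109011929, in the noncoding gene Gm36876, 19 cytosines averaged 14.2% in the fasted library and 11.9% in the control library. The strands differed there: the 9 minus strand cytosines averaged 15.3% in the fasted library and 10.97% in the control library, all 9 higher and 7 with an adjusted p under 0.05, while the 10 plus strand cytosines averaged 13.3% in the fasted library and 12.7% in the control library, 5 higher and 5 lower. This locus thus had 2 strands over the same 49 bp that gave different differences between the libraries.

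At chr13:9834319-9834469, in no annotated gene, 22 cytosines averaged 18.6% in the fasted library and 16.8% in the control library, and 21 of 22 were higher. At chr16:57391375-57391517, where Cmss1 and Filip1l overlap, 11 minus strand cytosines averaged 20.7% in the fasted library and 17.8% in the control library, all 11 higher, with 5 at an adjusted p under 0.05. At chr17:36231292-36231328, 967 bp from the pseudogene Gm18604, 5 cytosines averaged 15.3% in the fasted library and 12.8% in the control library. In that last locus levels were mixed even within 37 bp: the cytosine at 36231321 was methylated in 2 of 2513 reads of the fasted library and 6 of 1874 of the control library, between others at 24.7 and 17.9% in the fasted library.

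The locus at chr6:3201422-3201540 had 8 cytosines that averaged 23.5% in the fasted library and 21.1% in the control library, all 8 higher, 1 with an adjusted p under 0.05. Its 8 CpGs had the same spacing as 8 CpGs from 39847333 to 39847450 of the ribosomal DNA window, with all 8 CpGs in place to the base. In the window those CpGs were methylated at 12.7% in the fasted library and 8.88% in the control library. The other 4 loci with 8 CpGs had at most 5 of 8 in place anywhere in the window, a description with no test. Spacing was compared on CpGs with reads, and no sequence of either place was compared.

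A low locus went the other way. At chr18:68692072-68692154, in the noncoding gene Gm30821, 14 cytosines averaged 14.5% in the fasted library and 17.5% in the control library. Of the 14, 13 were lower (-3.04 points, 95% interval -4.15 to -1.93, cytosines taken as independent). One of them had an adjusted p under 0.05, at 68692135 on the minus strand, with 5.32% of 752 reads in the fasted library and 13.6% of 686 in the control library. Near the transfer RNA genes n-TEctc5 and n-TGtcc1, inside Fcgr3, an Fc receptor gene, the CpG at chr1:171064040 was methylated at 1.53% on the plus and 4.39% on the minus strand in the fasted library and at 3.03 and 6.17% in the control library, and neither strand passed the test. The ribosomal DNA window, for comparison, had 529 cytosines of the same depth that averaged 18.4% in the fasted library and 15.5% in the control library, with 94.5% of them higher in the fasted library. Of the 148 cytosines in low loci 106 were higher.

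Most loci of intermediate level held cytosines near both extremes. In 12 of the 97 loci the cytosines spanned more than 60 points in both libraries, and 7 of these 12 were among the 9 loci from 30 to 70%. At chr2:32117485-32117499, the outer 2 of 5 cytosines within 15 bp were methylated at 3.48 and 1.72% in the fasted library and at 0.433 and 0.866% in the control library. The inner 3 were methylated at 91.7, 94.8 and 94.4% in the fasted library and at 93.1, 95.7 and 94.2% in the control library. All 5 were on the minus strand with 230 to 232 reads in the fasted library and 462 in the control library, so both kinds occurred at nearly equal depth within a library. The pattern of single cytosines was the same in both libraries although the depth ratio of this locus was 0.481, the lowest among loci with at least 4 cytosines.

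At chr4:53392825-53392858, in Gm12496, 1 cytosine was methylated at 10.4% in the fasted library and 16.5% in the control library, and the next 3 at 84.3 to 88.0% in the fasted library and 85.5 to 88.1% in the control library. At chr6:40722566-40722776, in Mgam, which encodes the gut enzyme maltase-glucoamylase, levels of about the same size recurred: 80.8 and 14.2% in the fasted library and 75.5 and 14.3% in the control library at the first pair, and 80.8 and 13.8% in the fasted library and 75.9 and 13.8% in the control library at the second. The 5 cytosines of the locus in Pde4d, a phosphodiesterase gene, at chr13:109767960-109768369, averaged 55.9% in both libraries, with single cytosines at 9.81 to 93.7% in the fasted library and 13.8 to 94.4% in the control library. None of the cytosines of these 4 loci had an adjusted p under 0.05.

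The high loci were led by a pair of loci on chromosome 2. At chr2:98666262-98667310, 35289 bp from the nearest annotated gene, 36 cytosines averaged 88.6% in the fasted library and 89.1% in the control library, with 15 higher and 21 lower. Among its 25 CpGs, distances of 251 bp occurred 7 times, and distances of 88 bp and of 234 bp occurred 5 times each. At chr2:98662556-98662856, 14 cytosines averaged 75.6% in the fasted library and 77.0% in the control library. Within it, 1 CpG stood apart from its methylated neighbours. At 98662601 on the plus strand 13.8% of 3224 reads were methylated in the fasted library and 22.2% of 2973 in the control library (Fisher's exact test, adjusted p = 3.58e-13). On the minus strand of the same CpG 14.4% of 4568 reads were methylated in the fasted library and 19.8% of 4689 in the control library (Fisher's exact test, adjusted p = 7.55e-08). Both strands were lower in the fasted library, by less than 10 points.

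At chr14:19415740-19418796, 17 cytosines averaged 87.3% in the fasted library and 88.8% in the control library, with 11 lower and 2 of them at an adjusted p under 0.05. Both were the strands of 1 CpG, at 19415758, with 89.0% in the fasted library and 92.4% in the control library on the plus strand and 82.8% in the fasted library and 88.2% in the control library on the minus strand. The first part of chromosome 9 held 7 loci, from 3000341 to 3037244. Their 41 cytosines averaged 79.8% in the fasted library and 81.6% in the control library, and 35 of the 41 were lower. Single cytosines of these loci passed the adjusted test only at 3001454, with 90.1% in the fasted library and 95.1% in the control library (Fisher's exact test, adjusted p = 0.031).

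By size of difference among high loci with at least 4 cytosines, the largest decreases were at chr9:3024223-3025549, with 87.3% in the fasted library and 90.2% in the control library and all 8 cytosines lower, at chr9:35305300-35305522 in Gm33838, with 84.4% in the fasted library and 87.2% in the control library, and at chr14:12254479-12255174, with 92.1% in the fasted library and 94.0% in the control library. The largest increases were about 1 point, at chr6:78435491-78436154, chr14:113593183-113594069 and chr7:82771276-82771292 in Efl1, a gene of ribosome assembly. The first of these had 94.0% in the fasted library and 92.8% in the control library, with all 6 cytosines higher. The second had 94.2% in the fasted library and 93.1% in the control library, and the third 94.1% in the fasted library and 93.2% in the control library. None of the cytosines of these 6 loci had an adjusted p under 0.05, and the nearest was at 35305435 with 61.6% in the fasted library and 74.4% in the control library (Fisher's exact test, adjusted p = 0.0527).

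Depth differed between the libraries by class. The depth ratio is fasted over control reads of a locus, divided by the ratio of the library totals, and it is given with no test because depth chose the members. Its median was 1.02 over the low loci, with 10 above 1 and 7 below, 0.705 over the loci between, with 1 above and 8 below, and 0.798 over the high loci, with 12 above and 59 below. Over all 97 it was 0.815, from 0.471 to 1.82. The highest among loci with at least 4 cytosines were 1.33 at chr13:9834319, 1.29 at chr17:36231292 and 1.21 at chr16:57391375, all of low level. The lowest were 0.481 at chr2:32117485, 0.599 at chr15:46210014-46210251, where 6 cytosines averaged 87.4% in the fasted library and 89.2% in the control library, and 0.657 at chr9:3000341-3002155, where 21 cytosines averaged 81.1% in the fasted library and 82.8% in the control library. The 7 loci at the start of chromosome 9 all lay between 0.549 and 0.695.

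**Figure D4:**
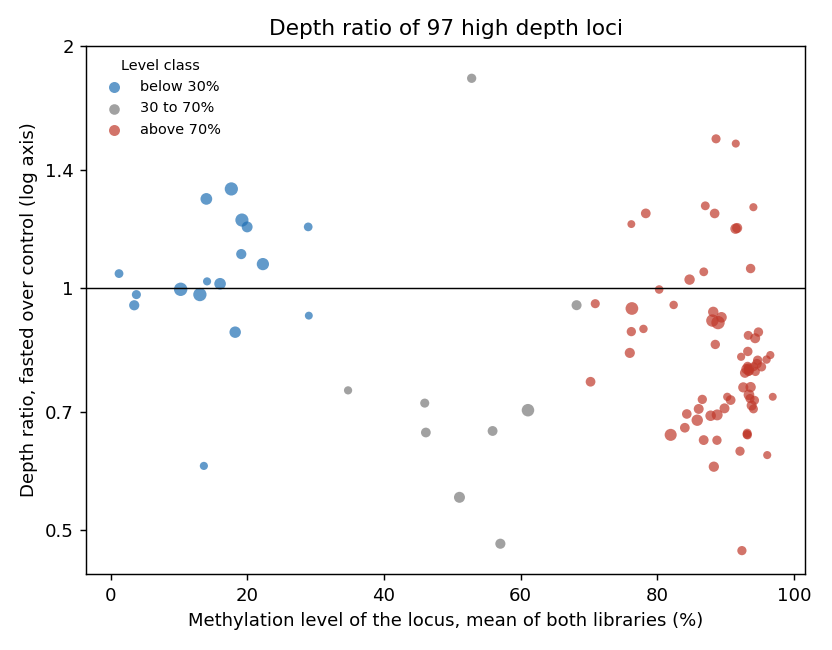
Depth ratio of the fasted over the control library (y axis, log scale, divided by the ratio of the library totals) against the level of the locus averaged over both libraries (x axis, percent), with 1 point for each of the 97 loci, coloured by level class and larger with more reads. The median is 1.02 below 30%, 0.705 between 30 and 70% and 0.798 above 70%, and 59 of the 71 high loci lie below 1.

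Outside the members, cytosines above 70% had the lowest ratio of the 3 classes in the deeper sets, whereas among the members the class from 30 to 70% had it. For cytosines whose shallower library had at least 100 and under 200 reads, the ratio of summed reads was 0.951 below 30%, 0.917 between 30 and 70% and 0.835 above 70%. For those with 50 to 99 reads it was 0.945, 0.958 and 0.899. For those with 10 to 49 reads it was 0.961, 1.01 and 1.00, where methylated cytosines did not have the lowest ratio. Members summed the same way, by the level of the cytosine, gave 1.09, 0.763 and 0.845, and the ribosomal DNA window gave 1.03 over all its cytosines. With 1 library in each group, a difference in depth between libraries and one between conditions cannot be told apart.

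The strands of a CpG could be compared within a library at 104 member CpGs. Over all autosomal CpGs with at least 10 reads on both strands, 0.0649% were called at 25 points in the fasted library and 0.0699% in the control library. Of the 104 member CpGs, 3 were called in the fasted library and 2 in the control library, both among the 3. At 10 points 11 of the 104 were called in the fasted library, against 0.0681% of all, and 15 in the control library, against 0.0768%, and 6 of the 11 and 10 of the 15 lay in the Sfi1 locus. The CpG at chr6:47753648 was methylated at 96.8% on the plus and 4.98% on the minus strand in the fasted library and at 96.6 and 4.48% in the control library. The CpG at chr6:47754166 had the opposite pattern, with 1.70% on the plus and 96.7% on the minus strand in the fasted library and 2.69 and 96.8% in the control library. The strands of these 2 CpGs differed more than any CpG among the members differed between the libraries.

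Both of those CpGs lie in the locus chr6:47753609-47754206, 1060 bp from Gm52862, where 14 cytosines averaged 18.1% in the fasted library and 18.3% in the control library and read counts recurred 557 bp apart. At 47753617 and 47754174 on the plus strand, 29 of 471 reads were methylated in the fasted library and 29 of 487 in the control library at both places. At 47753618 and 47754175 on the minus strand, 24 of 557 were methylated in the fasted library and 30 of 624 in the control library at both places. The third call in the fasted library was at chr2:98662629, with 57.3% of 2467 reads on the plus and 82.5% of 491 on the minus strand. In the control library the same CpG had 58.7% of 2051 reads on the plus and 80.2% of 926 on the minus strand, a gap of like direction that fell short of 25 points.

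Recurring counts were found in other loci too. In 34 loci, 435 pairs of members lay on 1 strand more than 350 bp apart, the upper limit of the gel fractions. Of these, 56 pairs in 21 loci had read depths within 2% of each other in both libraries. Of 396 pairs on opposite strands 1 did. Of the 21 loci 19 were in the high class. That class held 71 of the 97 loci. Its loci were the longest, with a median span of 223 bp against 71 bp in the low class and 34 bp between. The 19 are thus not read as a trait of the class. In 5 of the 56 pairs the methylated and total reads were identical in both libraries. In Pde4d, chr13:109767960 and chr13:109768360 each had 178 of 215 reads methylated in the fasted library and 245 of 311 in the control library. In Cftr, which encodes a chloride channel, the cytosines at chr6:18264695, 18264735 and 18265487 had 446, 446 and 446 reads in the fasted library and 547, 547 and 545 in the control library. Distances within such pairs ran from 391 to 878 bp. The pairs lay in loci with and without an annotated gene.

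A spacing of 40 bp between CpGs recurred across chromosomes, a feature chosen after the values were seen. It was found on 1 strand in 30 pairs of members in 23 loci on 13 chromosomes, 22 of them in the high class. These pairs made up 3.10% of the 969 pairs of members up to 100 bp apart, against 1.03% of all such pairs of tested cytosines. The 23 loci had a median level of 93.1% in the fasted library and 92.8% in the control library, and a median depth ratio of 0.790. Of them 12 were higher and 11 lower in the fasted library, and 6 lay in an annotated gene, so this set had the high level and the low depth ratio of its class and no common direction.

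Of the 97 loci 34 overlapped a RefSeq gene, or 35.1%, against 74.1% of all tested cytosines. Among the high loci it was 21 of 71, or 29.6%, against 62.2% of tested cytosines above 70%. These shares set loci against cytosines and are a description with no test. Exons, introns and untranslated regions were not analysed here. Of 21 gene families set out by patterns of gene symbols, 15 had no locus within 1000 bp of a gene whose symbol matched, those of ribosomal proteins, histones, olfactory receptors and defensins among them. The zinc finger pattern took Zfp, Zkscan, Zscan and Zbtb symbols and found none, while zinc finger genes with other symbols, Zc3h7a and Zfyve9, did hold loci. The families with a locus were transfer RNA, microRNA, protocadherin and vomeronasal receptor genes with 1 locus each, Sfi1 with 3 and predicted genes with 13. The protocadherin locus was in Pcdh7, at chr5:58000597-58000636, where 4 cytosines averaged 89.7% in the fasted library and 89.1% in the control library. The microRNA was Mir6546, beside the transfer RNA genes on chromosome 1.

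The members' strands were also uneven. Of the 77 loci with at least 2 members 53 had them on 1 strand only, and with the loci of 1 cytosine 38 loci were on the plus and 35 on the minus strand alone. In the deposited counts of cytosines above 70%, methylated and total reads were both even at 28.4% of the members in the fasted library and 25.3% in the control library, where independent counts would give 25%. At other cytosines above 70% with at least 50 and under 200 reads the shares were 40.8% in the fasted library and 39.8% in the control library. With 10 to 49 reads in the shallower library, the shares above 70% were 37.2% in the fasted library and 37.8% in the control library. The members thus had fewer even counts than cytosines of like level and lower depth, and the cause was not tested. Where every read is methylated the 2 counts are equal and so not independent. The 25% therefore need not hold at lower depth, and the shares are a description only.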

How the data were processed

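Reduced representation bisulfite sequencing of liver DNA gave 1 fasted and 1 control library, grouped by title. DNA was cut with TaqαI and MspI and gel fractions up to 350 bp were sequenced, per the labels' protocols. Tools named in the submitters' processing notes are Bismark 0.14.3 and bcl2fastq 1.8.4, with mm10 as build. How reads that map to several places were treated, and whether duplicates were removed, is not given in the sources used here.

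The deposited files list each CpG cytosine by strand with methylated and total read counts in a text field, and a score. That deposited score, the methylated fraction on a scale to 1000, lay within 0.5 of the value from the counts. All values were computed from the counts. Total counts were 51276705 in the fasted and 49253627 in the control library, summed over cytosines.

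Python 3.11.15 with numpy 2.4.6, pandas 2.3.3, scipy 1.17.1 and numba 0.67.0 was used. Two-sided Fisher's exact tests, Benjamini-Hochberg adjusted, ran over the 1603296 autosomal cytosines that had 10 reads or more in each library. The test was tested on simulated data with 200 known changes at member depths, centred on 50%. It recovered 4 of 50 changes of 5 points, 15 of 50 of 10 points, 33 of 50 of 15 points and 48 of 50 of 25 points. Recovered meant an adjusted p under 0.05 with no size required, so these are not rates of the calls at 10 or 25 points. Of the 486 members 41 lay from 30 to 70%, and no rates were obtained for changes centred on other levels. A difference of a few points that did not pass is thus not read as no difference. A locus level is the mean over its members. Single cytosines have exact Clopper-Pearson intervals (95%). Intervals of locus differences assume independent reads and independent cytosines. Neighbouring cytosines share reads, so these intervals can be too narrow. Genes came from RefSeq tables of GRCm38.p6.

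The named items are the 10 loci with most reads, the 3 largest increases and decreases in each level class and the 3 highest and lowest depth ratios among loci with at least 4 cytosines, the 5 largest called changes each way, the members at the depth threshold, nearby genes and gene families. Members and lists were chosen with earlier results of these data known. Other depths, joins, weights, classes, test minimums, halved or thinned counts and summed strands were tried as alternatives. Loci were also described without Sfi1 and without loci of 1 cytosine, both chosen after seeing the data.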

Additional observations from a re-analysis of the deposited data

Results flagged for a closer look

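Cytosines of the same depth, at least 200 reads in both libraries, also occurred outside the autosomes, in data that no comparison used. No level from DNA known to be unmethylated was at hand to set them against, so their levels are a description only. The 17 on the mitochondrial chromosome averaged 0.978% in the fasted library and 0.971% in the control library, with a depth ratio of 0.792. The 56 on the unplaced sequence JH584304 averaged 47.0% in the fasted library and 47.4% in the control library. The 29 on chromosome X averaged 87.5% in the fasted library and 88.0% in the control library. The 13 on chromosome Y averaged 75.3% in the fasted library and 73.9% in the control library.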

How the results depend on the processing

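No paired analysis was possible because each group had 1 library. Of the values recomputed under alternatives, 94 stayed and 37 moved. A difference stayed if it lay inside the 95% interval of the main value. For the median depth ratio the interval was that of the 1 locus nearest the median, 0.699 to 0.948. It covers counting error at that locus, not the spread of the median over loci. A count stayed if it was within 1.5 times of the main count. The rule gave 1073 cytosines in 248 loci at 100 reads and 272 in 39 at 400 reads. The mean difference of the members was 0.210 points at 100 reads, -0.792 at 400 reads, -3.84 with each read weighted equally, 0.695 with each locus weighted equally, 0.212 with strands summed, -1.10 in loci with at least 4 cytosines, 1.24 with the ribosomal DNA window and 0.327 without the Sfi1 locus, so its sign depends on the set. Read weighting also carries the depth differences between loci. Calls over all autosomal cytosines at 25 points were 778 with at least 20 reads tested, 89 with counts halved and 2389 with strands summed. At 10 points 1 member was higher and 21 were lower. With counts halved, 7 of those 22 still passed, all in the Sfi1 locus, and with strands summed 7 CpGs were higher and 14 lower. Over all autosomes the calls at 10 points were 1354 cytosines, 96 with counts halved, and 2517 CpGs with strands summed.

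With classes set by the control library, mean differences were 1.93 points from 30 to 70% and 0.416 above 70%. Set by the fasted library, they were 0.0686 below 30% and 0.794 from 30 to 70%. At 100 reads there were 35 loci below 30%, 32 between, with a mean difference of 1.32, and 181 above 70%, with 0.354. At 400 reads there were 9, 2 and 28, and the middle class had -6.91. With at least 4 cytosines there were 10, 5 and 18, and the high class had -0.595. Without Sfi1 the middle class had 0.374, and without loci of 1 cytosine the high class had 0.449. Summed reads gave -2.37 at chr2:98662556. The cause was not tested. Median depth ratios of all loci stayed between 0.814 and 0.913. Thinning members to 50 reads is not read, since too few differences could pass at that depth.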
